A study of Oryctolagus cuniculus with 6 samples.

Results

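The chemokine genes CXCL5, CXCL8, CCL4 and CCL5 were followed in tissue healing within skull defects of rabbits, with and without a dentin graft. CXCL5 was taken at 1 stated probe, A_04_P004971, and the other genes were matched by symbol, accession or product name and read at the brightest probe over the arrays. All 4 genes were found, among 23370 genes and unnamed features on the array, and all 4 stood well above background on each of the 6 arrays. In treated defects 0.2 g of HPD, human particulated dentin, filled the cavity on the right side of the skull, and control defects, 5 mm wide like the treated ones, received nothing. All samples came from 4-month-old male New Zealand White rabbits, so breed, sex and age were common to both arms, and each of 24 rabbits carried 4 defects in the parietal bone. The groups were HPD-filled defects on day 3, day 5 and day 7 and unfilled control defects on day 3, day 5 and day 7, with 1 array of newly formed tissue per treatment and day. Whether an array held RNA of 1 animal or of several is not given in the labels, so no value has a replicate within its treatment and day, and each p-value below measures only the spread between these 6 arrays.

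Chemokines are small secreted proteins that guide leukocytes through receptors of the G protein-coupled family. CXCL5 (also called ENA-78, epithelial-derived neutrophil-activating peptide) and CXCL8 (interleukin-8) act on CXCR2, and CXCL8 also on CXCR1, to draw neutrophils out of the blood. The mouse and rat genomes lack a CXCL8 gene, whereas the rabbit has one. CCL4 (macrophage inflammatory protein 1-beta) and CCL5 (RANTES), which signals through CCR1 among other receptors, act on monocytes, macrophages, T cells and natural killer cells. In a wound, CXC chemokines of this kind belong to the early inflammatory phase, and macrophages, neutrophils, stromal cells and lymphocytes can all make chemokines. In RNA of whole tissue, fewer cells of a type and less RNA per cell cannot be told apart.

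The probes of these genes are 60 bases long, and 4 are shown because they let related genes be set side by side. Coordinates are those of the array files on rabbit build oryCun2. The CXCL5 probe lies at chr15:76297995-76298166 on the minus strand, a span of 172 bases that leaves out 112, as for a sequence joined across an intron. The CXCL8 probe shown lies at chr15:76370624-76370952 on the minus strand, with 269 bases left out. In both, capitals mark the longest run the pair shares, which begins at base 33 of each probe.
CXCL5: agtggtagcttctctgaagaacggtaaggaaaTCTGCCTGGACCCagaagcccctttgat
CXCL8: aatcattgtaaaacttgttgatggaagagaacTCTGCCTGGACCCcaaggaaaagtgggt
Laid end to end without gaps, 31 of their 60 bases were identical (51.7%), and the shared run was 13 bases. The CCL5 probe, at chr19:24923985-24924044 on the minus strand, ends with a stop codon, as does that of the nearby CCL3-like gene at chr19:25034287-25034346. Capitals mark the 8 bases that this pair shares, and 30 of 57 aligned bases were identical (52.6%).
CCL5: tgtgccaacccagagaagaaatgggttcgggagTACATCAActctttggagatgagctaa
CCL3-like: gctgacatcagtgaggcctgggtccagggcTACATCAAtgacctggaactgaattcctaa
Across 8 probes of these genes, the longest run shared with a probe of any other gene was 12 to 14 bases of 60. The CCL4 probes lie on the plus strand of chromosome 19 between 25045560 and 25045624, overlap one another and hold the polyadenylation signal AATAAA. The CXCL8 probe with the brightest signal spans chr15:76369048-76369107. CXCL5 and CXCL8 are therefore neighbours on chromosome 15, and CCL4, CCL5 and the CCL3-like gene on chromosome 19.

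Levels below are log2 of the processed signal minus the array's 75th percentile, so that 0 is the signal below which 75% of the spots on that array lie. CXCL5 stood at 2.02, 2.39 and 0.23 in HPD-filled defects on days 3, 5 and 7, against 0.96, -0.03 and -0.88 in control defects. The HPD array was the brighter on each day, while the levels of the treatments overlapped when days were pooled, since the HPD array of day 7 lay below the control array of day 3. As unscaled intensity these were 1866, 2129 and 384 in HPD-filled defects and 914, 396 and 168 in control defects. The ratio of HPD to control from the scaled levels of CXCL5 was 2.09 on day 3, 5.32 on day 5 and 2.15 on day 7.

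CXCL8, a major neutrophil attractant of human wounds, had levels of 4.25, 4.44 and 1.24 in HPD-filled defects on days 3, 5 and 7, against 3.41, 1.31 and -0.68 in control defects. The HPD arrays of days 3 and 5 were close to each other, and the control array of day 5 lay near the HPD array of day 7. Its intensity was 8711, 8806 and 773 in HPD-filled defects and 5011, 997 and 192 in control defects. HPD over control was 1.78-fold on day 3, 8.74-fold on day 5 and 3.78-fold on day 7.

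CCL4, a macrophage and T cell product that attracts monocytes and lymphocytes, had levels of 2.99, 4.00 and 0.98 in HPD-filled defects on days 3, 5 and 7, against 2.47, 1.65 and -0.42 in control defects. Its highest array was HPD on day 5, where CXCL5 and CXCL8 also had theirs. Intensities ran from 648 to 6525 in HPD-filled defects and from 231 to 2612 in control defects. The folds of HPD over control were 1.43, 5.10 and 2.64 on days 3, 5 and 7.

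CCL5, known as a product of T cells and natural killer cells as well as of macrophages, had levels of 0.79, 0.30 and -2.57 in HPD-filled defects on days 3, 5 and 7, against 1.18, -1.23 and -3.18 in control defects. On day 3 the control array was the brighter, by 1.31-fold, and its highest array was the control of day 3. HPD over control was 2.87-fold on day 5 and 1.53-fold on day 7. Its intensities on days 3, 5 and 7 were 796, 499.5 and 55.4 with HPD, against 1066, 172 and 34.1 in control.

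**Figure D1:**
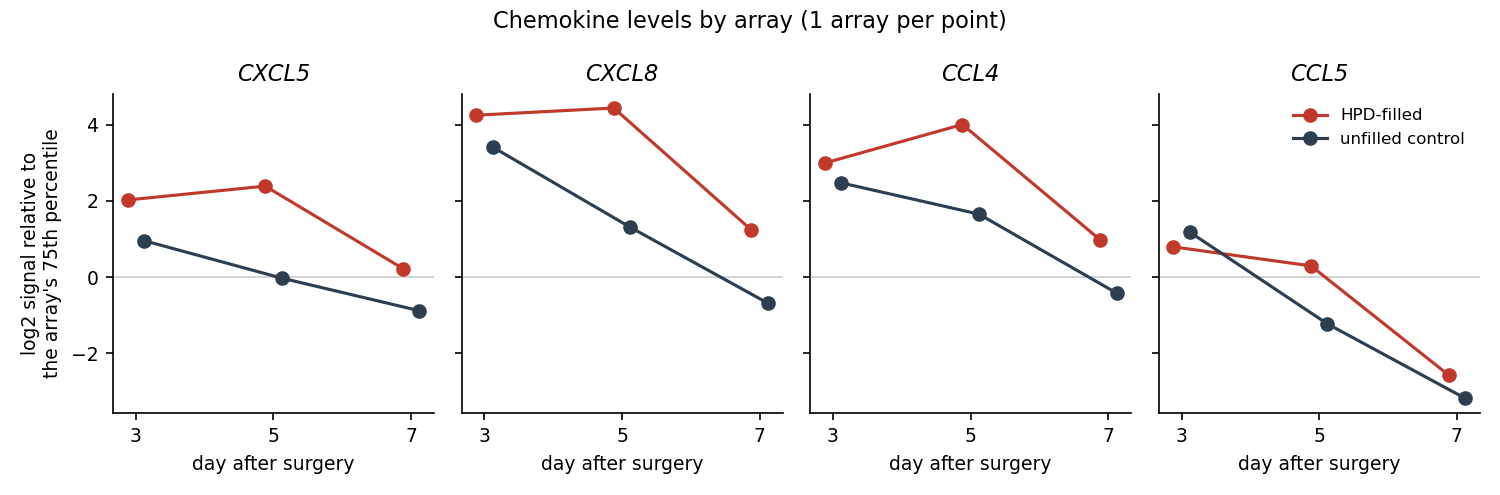
The plot of member levels by day gives log2 signal relative to the array's 75th percentile (vertical axis) against day after surgery (horizontal axis) for CXCL5, CXCL8, CCL4 and CCL5, with 1 point per array, HPD-filled defects in red and unfilled controls in dark blue. The HPD point lies above the control point on each day for CXCL5, CXCL8 and CCL4, and below it on day 3 for CCL5 (0.79 against 1.18).

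Each member was read by 1 spot per array, for which the scanner software gave an error of at most 11.5% of the signal. Repeat spots show how far such a reading moved. A probe of GRO-A, a gene of the same class that was printed 5 times on each array, had an SD of 0.02 to 0.06 in log2 between its spots, and over 50 probes printed 5 times the median SD was 0.12 and the 95th percentile 0.63. These figures cover the slide surface only and not differences between defects or animals. The members' differences between treatments on day 5, of 1.52 to 3.13, were larger than that spread. In size, the day 3 differences of CCL4 (0.52) and CCL5 (-0.39) and the day 7 difference of CCL5 (0.61) lay under the 95th percentile. That percentile is for single spots, whereas each difference holds the error of 2 spots, so it is a low bar.

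The comparison of HPD with control asked how the graft altered the tissue over the days studied. Averaged over the days, CXCL5 was at 1.55 ± 1.16 in HPD-filled defects and 0.02 ± 0.92 in control defects (SD, n = 3 days each), a difference of 1.53 ± 0.32 (SE) in a limma fit with day and treatment as terms. CXCL8 was at 3.31 ± 1.80 with HPD and 1.35 ± 2.05 in control, a difference of 1.96 ± 0.46. For CCL4 these were 2.66 ± 1.54 with HPD and 1.24 ± 1.49 in control, a difference of 1.42 ± 0.38. The differences of CXCL5, CXCL8 and CCL4 exceeded their standard errors by far more than did that of CCL5. CCL5 was at -0.49 ± 1.81 with HPD and -1.07 ± 2.18 in control, a difference of 0.58 ± 0.39.

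No member passed the test after Benjamini-Hochberg adjustment over 20216 features. The adjusted p from limma was 0.557 for CXCL5, CXCL8 and CCL4 and 0.604 for CCL5, and the share of all features that passed was 0% (0 of 20216). Without adjustment the limma p was 0.00682 for CXCL5, 0.0103 for CXCL8, 0.0158 for CCL4 and 0.203 for CCL5, and 7.11% of all features were higher with HPD at an unadjusted p under 0.05. That share depends on the scaling, since 1438 features were higher and 285 lower here, 885 and 549 with quantile normalization, and 632 and 1065 with a median shift. CXCL8 had the largest mean difference among the members, and 11 features of the 20216 exceeded it, 52 exceeded CXCL5, 75 exceeded CCL4 and 1228 exceeded CCL5. The residual SD was 0.54 for CXCL5, 0.81 for CXCL8, 0.65 for CCL4 and 0.67 for CCL5, against a median of 0.20 over all features. For these genes it holds the unequal size of the difference on the 3 days.

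By day, the difference between HPD and control was 1.07, 2.41 and 1.11 for CXCL5 on days 3, 5 and 7, and 0.83, 3.13 and 1.92 for CXCL8. It was 0.52, 2.35 and 1.40 for CCL4, and -0.39, 1.52 and 0.61 for CCL5. All 4 members had their largest difference on day 5, as had 31.1% of the 18138 features measured on all arrays. CXCL5, CXCL8 and CCL4 were higher with HPD on all 3 days, which held for 27.6% of features. At the probes used, CXCL5 was at least 2-fold higher on each day, as were 17 features in all (0.0937%), but its day 3 difference was under 2-fold with a median shift (0.89) and normexp (0.99), and its day 7 difference with normexp (0.88). Other CXCL8 probes also reached that size on each day, such as A_04_P004966 at 2.15-fold, 8.48-fold and 4.07-fold. On day 5, all 4 were at least 2-fold higher with HPD, against 4.9% of features measured on both arrays of that day. The probes used passed that size for CXCL5 on day 3 (3.58% of features did) and for CXCL5, CXCL8 and CCL4 on day 7 (1.64%).

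The arrays of day 3 lay on 1 slide and those of days 5 and 7 on another, so each treatment difference was taken within a slide. On the slide of days 5 and 7 alone, the HPD difference was 1.76 for CXCL5, 2.52 for CXCL8, 1.87 for CCL4 and 1.07 for CCL5. On the slide of day 3 it was the day 3 difference given above. For CCL5 the sign differed between the slides, which here are also different days, and slide and day cannot be told apart. Without day 5 the difference was 1.09 for CXCL5, 1.38 for CXCL8, 0.96 for CCL4 and 0.11 for CCL5, and adjusted p-values from limma lay between 0.626 and 0.891. Without day 3 that of CCL5 was 1.07 ± 0.30, so its mean difference moved by over 1.5 times with either day left out.

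Over time, all 4 members were lower on day 7 than on day 3. Averaged over treatments the difference was -1.82 ± 0.39 (SE) for CXCL5, -3.55 ± 0.56 for CXCL8, -2.45 ± 0.46 for CCL4 and -3.86 ± 0.48 for CCL5. For every member both arrays of day 7 lay below both arrays of day 3, which was so for 26.3% of features. The size for CXCL5 depended on the probe, at -3.07 with A_04_P013536, the brightest of its other probes. That of CXCL8 was -2.71 with its probes averaged. None passed the adjusted limma test, with adjusted p-values of 0.143, 0.117, 0.127 and 0.117, and 1 of 20216 features passed (0.00495%), the unnamed transcript ENSOCUT00000010166, which was higher and is named here after its value was seen. All 4 had an unadjusted limma p under 0.05 (0.00764, 0.00223, 0.00437 and 0.000788), as had 10.1% of features in this direction. Day 7 and day 3 lay on different slides, so time and slide cannot be told apart in this comparison. With normexp background correction all 4 members passed (adjusted p from limma of 0.0125 to 0.0298), among 1029 features.

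The step from day 3 to day 5 differed between the treatments, whose levels were already unequal on day 3. In control defects the signal was lower at each step for all 4 members, as for 18.6% of features: on day 5 against day 3 by 1.98-fold for CXCL5, 4.30-fold for CXCL8, 1.77-fold for CCL4 and 5.30-fold for CCL5. In HPD-filled defects, the same step was 1.29-fold higher for CXCL5, 1.14-fold higher for CXCL8 and 2.02-fold higher for CCL4, and 1.41-fold lower for CCL5. At the probes used, CXCL5, CXCL8 and CCL4 had day 5 above day 3 with HPD and a lower level at both steps in control. The same held for 7.27% of features. At the CXCL8 probe A_04_P004969 the HPD level was 3.14 on both days, so the CXCL8 rise depended on the probe.

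Day 7 was below day 5 in both treatments. In HPD-filled defects that step was 4.47-fold lower for CXCL5, 9.19-fold for CXCL8, 8.12-fold for CCL4 and 7.28-fold for CCL5. In control defects it was 1.81-fold lower for CXCL5, 3.98-fold for CXCL8, 4.20-fold for CCL4 and 3.87-fold for CCL5. With HPD the later step was the larger drop for all 4 members. In control the steps were similar for CXCL5 and CXCL8 at the probes used, and the later step was the larger for CCL4 and the smaller for CCL5. Over the whole course, CCL5 was 10.3-fold lower on day 7 than on day 3 with HPD and 20.5-fold lower in control. At the probe used, CXCL8 was 8.06-fold lower with HPD and 17.1-fold lower in control. At A_04_P004969, another CXCL8 probe, levels by day were 3.14, 3.14 and 1.18 with HPD, against 2.15, 0.77 and 0.08 in control. There the fall from day 3 to day 7 was similar in both treatments, and the earlier control step was the larger. CCL4 was 4.03-fold lower with HPD and 7.41-fold lower in control. CXCL5 was 3.48-fold and 3.58-fold lower, a near equal fall from day 3 to day 7, although the steps between differed. With 1 array per point, the difference between these courses was not tested.

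Several probes were available for 3 of the members, and they read different stretches of the same genes. CXCL5 had 5 further probes, at chr15:76297558-76297633 on the same Ensembl transcript but described as unknown on the array. Over all 6 CXCL5 probes the HPD difference ranged from 1.07 to 1.43 on day 3, from 2.41 to 3.44 on day 5 and from 1.11 to 1.79 on day 7. The stated probe gave the smallest value on each day, so that the day 5 fold was 5.32 with it and up to 10.9 with another. The brightest of the other CXCL5 probes, A_04_P013536, read 1.34, 1.91 and -1.77 with HPD, against -0.10, -1.47 and -3.12 in control.

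CXCL8 had 7 probes in 3 places. The pair near the end of the gene and the pair spanning 508 bases of the genome gave day 5 differences of 3.08 to 3.19, and the 3 probes spanning 329 bases gave 2.37 to 2.44. These 3 include the CXCL8 probe whose sequence is shown above, with levels of 3.14, 3.14 and 1.18 in HPD-filled defects and 2.15, 0.77 and 0.08 in control defects. The 3 stretches differed most on day 7, where HPD was 1.79-fold to 2.14-fold higher at the 3 probes spanning 329 bases and 3.78-fold to 4.07-fold higher at the other 4. The 5 overlapping CCL4 probes lay within 0.52 to 0.66 on day 3, 2.32 to 2.39 on day 5 and 1.31 to 1.41 on day 7. All probes of these 3 genes were higher with HPD on all days, and CCL5 had a single probe.

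**Figure D2:**
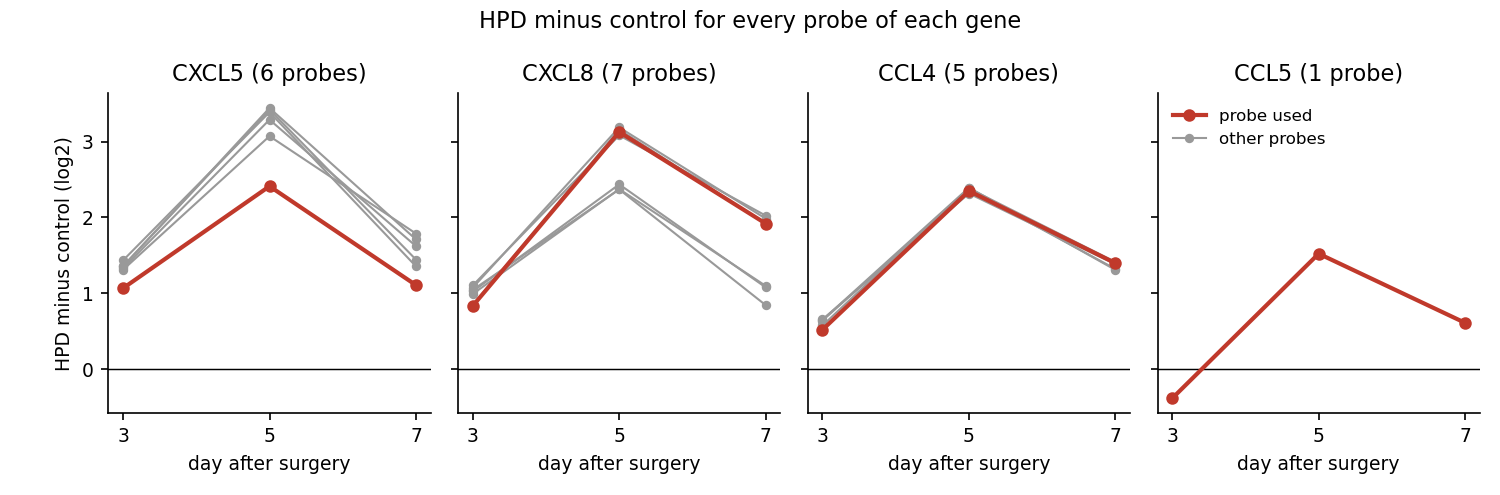
The plot of probe differences gives HPD minus control in log2 (vertical axis) against day after surgery for every probe of CXCL5, CXCL8, CCL4 and CCL5, with the probe used in red and the others in grey, 1 array against 1 at each point. Day 5 is the highest point for every probe, and the red CXCL5 line is the lowest of its 6 (2.41 on day 5, others up to 3.44).

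Related chemokines were described to show where the members differ from their families. Of 13 other CXC chemokines listed, 4 were named on the array and 3 were tested, 1 higher and 2 lower with HPD, with a median of -0.00 against 0.09 over all features. The share of all features higher was 62.7%. With a median shift or normexp all 3 were lower, beside 44.2% and 49.7% of all features higher. GRO-A, the rabbit counterpart of the neutrophil attractant CXCL1, stood at 2.11, 1.77 and 0.68 with HPD, against 2.74, 1.79 and 0.02 in control. Its difference was -0.63, -0.02 and 0.65, with a mean of -0.00 ± 0.28. GRO-A resembled the members in time, with day 7 below day 3 by 2.07 ± 0.34 (adjusted p from limma = 0.119), but HPD and control levels were close on day 5. It lies on chromosome 15 with CXCL5 and CXCL8. A further GRO-A probe, at chr15:76263019-76263078 and apart from the other 4, had a day 5 difference of 0.69, so readings of this name were not uniform.

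CXCL10, an interferon-induced attractant of T cells, had a mean difference of -0.06 ± 0.16, and CXCL13, an attractant of B cells, one of 0.11 ± 0.20. GRO-G was not well above background on any array. CXCL2, CXCL6, CXCL9, CXCL11, CXCL12, CXCL14, CXCL16, PF4 and PPBP were not found by name and are not reported here.

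Among CC and further chemokines, 8 of 19 listed genes were named and 7 tested, 6 higher and 1 lower with HPD. Of all features, 62.7% were higher. The list had a median of 0.23 against 0.09 over all features. With a median shift or normexp the counts were 5 higher and 2 lower, beside 44.2% and 49.7% of all features higher. The CCL3-like gene, whose relatives encode macrophage inflammatory protein 1-alpha, stood at 0.61, 1.30 and -0.88 with HPD, against -1.07, -0.26 and -1.59 in control. The differences between HPD and control were 1.68, 1.56 and 0.71 on days 3, 5 and 7, with a mean of 1.31 ± 0.24 (adjusted p from limma = 0.557). Unlike the members, its largest difference fell on day 3, and in control its level was 1.75-fold higher on day 5 than on day 3.

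CX3CL1, a membrane-bound attractant for monocytes, was higher with HPD by 0.58, 0.56 and 0.87, with a mean of 0.67 ± 0.14 and an unadjusted limma p of 0.0075 (adjusted over all features, 0.557). CCL2, the main monocyte attractant, was at 2.10, 3.11 and 1.42 with HPD, against 2.40, 2.04 and 2.09 in control. Its differences of -0.30, 1.07 and -0.67 turned sign between days, and its mean was 0.03 ± 0.38. CCL2 shared with the members the peak of the HPD difference on day 5 but not a higher level with HPD on day 7. CCL27 was the 1 tested gene of this list with a lower mean and differed by -0.31 ± 0.38. CCL7 was not tested, since only 2 arrays read it well above background.

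Of 22 receptors listed, 13 were named and all were tested, 11 higher and 2 lower with HPD, beside 62.7% of all features higher. Their median was 0.18 against 0.09 over all features. The direction of the receptors depended on processing, since normexp gave 6 higher and 7 lower, beside 49.7% of all features higher. CXCR2, the receptor for CXCL5 and CXCL8, was at 0.91, 0.67 and 0.46 with HPD, against 0.60, 0.39 and 0.15 in control, a mean difference of 0.30 ± 0.13. CXCR1, the other CXCL8 receptor, differed by -0.01, 0.76 and 0.46. The differences of these 2 receptors were thus smaller than those of CXCL5 and CXCL8 on each day. CCR1, a receptor for CCL5, differed by 0.33, 0.05 and 0.39, a mean of 0.26 ± 0.15. CXCR4, the receptor for CXCL12, differed by -0.60, 1.51 and -0.18, lower with HPD on days 3 and 7 and higher on day 5.

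**Figure D3:**
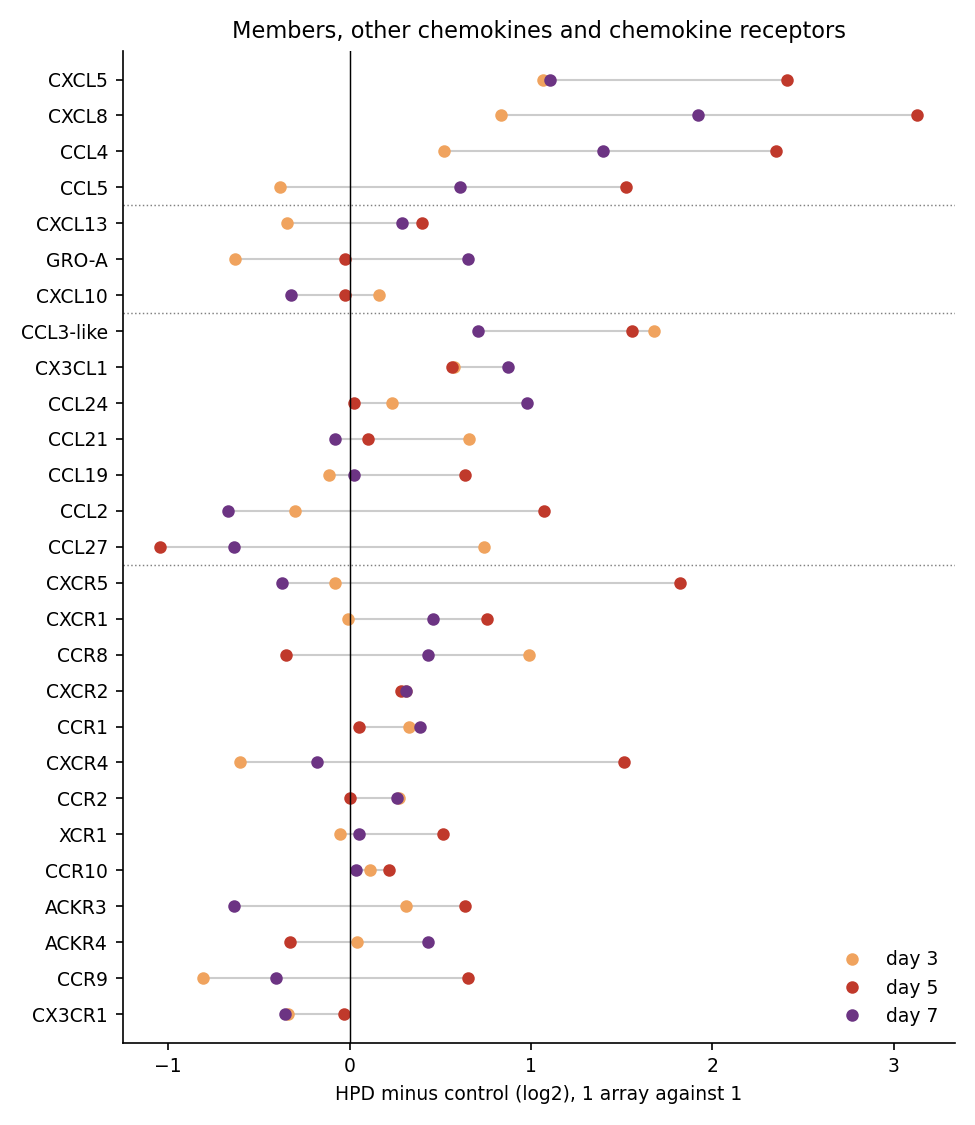
The dot plot of the chemokine system gives HPD minus control in log2 (horizontal axis), 1 array against 1, for the members, 3 other CXC chemokines, 7 other CC and further chemokines and 13 receptors, from top to bottom, with days 3, 5 and 7 in orange, red and purple. CXCL8 on day 5 lies farthest right (3.13), and all receptors but CXCR4 and CXCR5 lie within 1 of 0 on all days.

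Genes that induce these chemokines, or mark the NF-kappaB pathway through which many of them are switched on, were listed as well. Of 26 listed, 21 were named and tested, 18 higher and 3 lower with HPD, beside 62.7% of all features higher. The median was 0.35 against 0.09 over all features, and 0 of the list passed the adjusted limma test. At an unadjusted p under 0.05, 5 were higher and 0 lower, beside 7.11% of all features in that direction. A median shift gave 16 of the list higher and 5 lower, beside 44.2% of all features higher. TNF, a cytokine that switches on chemokine genes in many cells, was higher with HPD by 0.93, 0.95 and 0.81, a mean of 0.89 ± 0.13 (adjusted p from limma = 0.557, unadjusted 0.00161). IL1B, an inflammatory cytokine of macrophages and neutrophils, was at 4.29, 5.62 and 2.17 with HPD, against 4.08, 3.91 and 1.22 in control. Its difference of 0.21, 1.71 and 0.96 was largest on day 5, as it was for each member. ATF3, a stress-induced transcription factor, differed by 1.18 ± 0.27, most on day 3 (1.87). NFKB2 and NFKBIA, a subunit and an inhibitor of NF-kappaB, differed by 0.40 ± 0.13 and 0.43 ± 0.15. IL6 and IL1A had differences of either sign, of 0.31, -0.30 and 1.22 for IL6 and 0.25, -0.13 and -0.54 for IL1A.

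Marker genes of the cells that respond to, or make, these chemokines moved with the members in part. Of 18 neutrophil markers listed, 13 were named and tested, 11 higher and 2 lower with HPD, beside 62.7% of all features higher. A median shift gave 9 higher and 4 lower, beside 44.2% of all features higher. The markers had a median difference of -0.38 on day 3, 0.67 on day 5 and 0.40 on day 7, against 0.14, 0.09 and 0.06 over all features. Their summed signal, in units of the array's 75th percentile, was 587, 721 and 146 in HPD-filled defects on days 3, 5 and 7, against 1476, 311 and 125 in control defects. S100A8 and S100A9, the abundant calcium-binding proteins of neutrophils, made up 29.3% to 89.9% of the sum with HPD and 10.4% to 71.5% in control. Without this pair, left out after the values were seen, the sum was 161, 73.1 and 103 with HPD, against 421, 99.7 and 112 in control. It was so higher in control on each day, but on days 5 and 7 most single genes were not. Of the 13 genes, 11 were higher and 2 lower with HPD on day 5, and 12 higher and 1 lower on day 7. The median of all features was also higher with HPD on both days. MMP9 differed by -0.53 and -0.16 on those days. It made up 9.15% and 65.3% of the full sum with HPD, and 30.6% and 85.6% in control. The control array of day 3 was the highest in either sum, whereas CXCL5, CXCL8 and CCL4 were higher with HPD on that day. S100A8 differed by -1.20, 1.69 and 1.90 and S100A9 by -1.53, 1.48 and 1.36. MPO, the enzyme of neutrophil granules, differed by -2.74 on day 3.

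Of 14 macrophage and monocyte markers, 8 were named and tested, and all 8 were higher with HPD on average (6 with a median shift), with a median of 0.48. The background share of higher values was 62.7% (44.2% with a median shift). Their summed signal was 55.7, 40.8 and 29.7 with HPD, against 37.6, 20.7 and 23.0 in control, and thus higher with HPD on each day. The monocyte receptor gene CD14 differed by 0.79 ± 0.18 and the scavenger receptor gene MSR1 by 1.02 ± 0.26 (adjusted p from limma = 0.557 for both). CSF1R, the receptor for the macrophage growth factor CSF1, and the complement gene C1QA differed by 0.02 ± 0.14 and 0.04 ± 0.20.

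Of 18 T and natural killer cell markers, 13 were named and tested, and all 13 had a higher mean with HPD (9 with normexp). Of all features, 62.7% were higher (49.7% with normexp). These markers had medians of -0.17, 0.79 and 0.16 on days 3, 5 and 7. Their summed signal was 6.86, 6.65 and 4.46 with HPD, against 7.69, 3.91 and 3.74 in control. As for CCL5, the control array was the higher on day 3 and the HPD array on days 5 and 7. The full neutrophil sum and the sum of the red cell genes below had the same order, so it was not particular to this list. The part of these cell markers in the chemokine differences was not tested.

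Other marker lists were run for the rest of the tissue. The 5 tested red cell genes were all lower with HPD on day 3 (median -1.75, against 0.14 over all features). Their summed signal was 1037, 1581 and 1659 with HPD, against 1298, 1368 and 1465 in control. Fibroblast genes, 7 tested, were 1 higher and 6 lower on average (median -0.16), and osteoblast genes, 5 tested, 2 higher and 3 lower (median -0.32). Of all features, 62.7% were higher. With quantile normalization the fibroblast count was 3 higher and 4 lower, beside 54.0% of all features higher. By day the osteoblast medians were 0.05, -1.83 and 0.88, against 0.14, 0.09 and 0.06 over all features. On day 5, where the members were higher with HPD, 3 of these genes were lower and 2 higher (SP7 by 0.01 and SPP1 by 0.22). IBSP, DMP1 and PHEX, genes of bone matrix and osteocytes, differed by -2.09, -2.27 and -1.83 on that day, and all 5 were higher with HPD on day 7. COL1A1, the bone and connective tissue collagen gene, was well above background on all arrays, and so were the osteoblast genes SP7 and IBSP, in tissue labelled as newly formed in a bone defect. The 4 endothelial genes had a median of 0.22, the 2 platelet genes tested one of -0.09 and the single epithelial gene tested, EPCAM, a difference of -0.02 ± 0.37. The epithelial genes KRT5, KRT8 and CDH1 were not well above background on any array. The part of these lists in the chemokine values was not tested either.

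**Figure D4:**
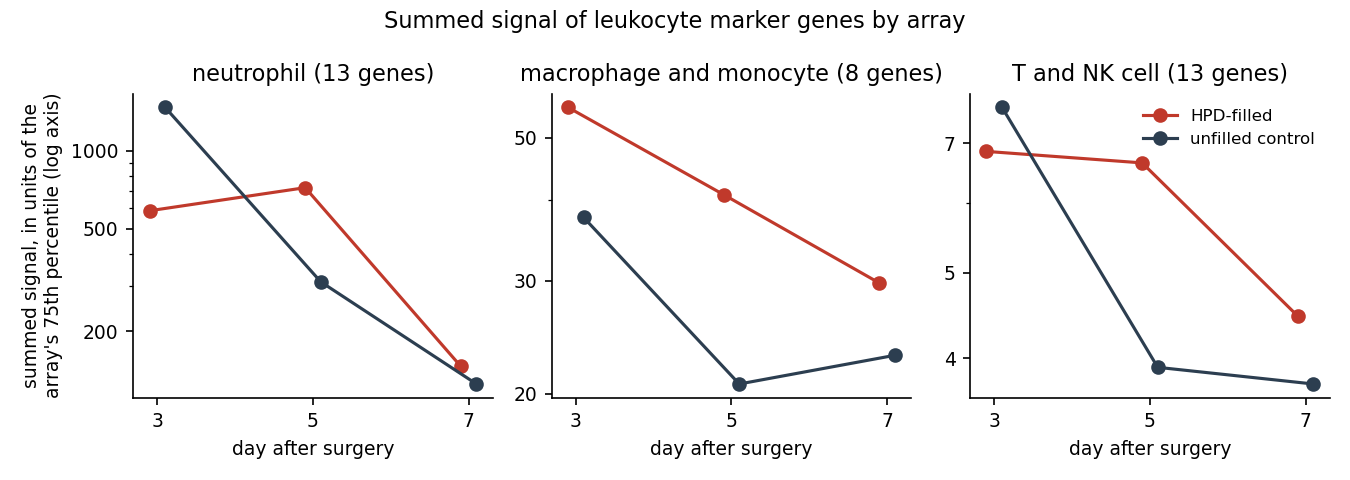
The plot of marker sums gives the summed signal of 13 neutrophil, 8 macrophage and monocyte and 13 T and natural killer cell genes (vertical log axis, in units of the array's 75th percentile) against day after surgery, with HPD-filled defects in red, unfilled controls in dark blue and 1 point per array. The macrophage sum is higher with HPD on each day (55.7 against 37.6 on day 3), while the neutrophil sum is higher in the control on day 3 (587 with HPD against 1476).

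The named genes whose profile over the 6 arrays was most like each member were taken by Pearson r among 2451 named genes with a range of at least 1 in log2, as a description in which all values share the same arrays. For CXCL5 they were LIPG (r = 0.994), CD1C (0.992), TIPARP (0.981), CXCL8 (0.973) and IER3 (0.964). LIPG encodes endothelial lipase and CD1C a lipid-presenting molecule of dendritic cells. For CXCL8 they were ARG1 (0.992), the urea cycle enzyme arginase, then DGAT2 (0.980), CD1C (0.978), CXCL5 (0.973) and CYRIA (0.973). ARG1 was at 2.92, 2.73 and -0.51 with HPD, against 2.30, 0.13 and -2.05 in control, a course close to that of CXCL8.

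For CCL4 the most similar genes were CD1C (0.978), ABHD4 (0.978), CYRIA (0.977), IL1B (0.972) and CXCL8 (0.970). For CCL5 they were PARPBP (0.992), SAMSN1 (0.990), CHPT1 (0.989), ESM1 (0.988) and TNFAIP8L2 (0.985), none of which is among the 5 of another member. Among the members themselves CXCL5, CXCL8 and CCL4 correlated at 0.958 to 0.973, and CCL5 with them at 0.819 (CXCL5), 0.872 (CCL4) and 0.921 (CXCL8). CCL5 ranked 123rd in likeness to CXCL5, behind CXCL8 in 4th and CCL4 in 8th place.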

How the data were processed

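Per the labels' protocols, RNA of newly formed tissue (0.2 μg) was amplified, labelled with Cy3 and hybridised to 6 rabbit arrays. The deposited values are spot intensity on a linear scale, made by the authors with Agilent Feature Extraction 10.5.1.1, per the file headers. On each array 78.1% to 86.4% of 43803 non-control spots were well above background, the 75th percentile of intensity was 309 to 471, and 0 spots were saturated. The number of arrays limits the precision. Outlier-marked spots (41 probes) were left out.

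From the deposited intensity, log2 values minus the array's 75th percentile were computed, and the brightest probe represented a gene. Names came from the array and from the RefSeq gene names of assembly mOryCun1.1: 22576 of 43603 probes had 1 symbol, 23 several and 21004 none. CXCL5 was named from its description as ENA-78. Features well above background on at least 3 arrays (20216) were tested with limma 3.58.1 (R 4.3.3, data.table, 1.17.8), with additive day and treatment terms and Benjamini-Hochberg adjustment at 0.05. The fit has 2 residual and 2.47 prior degrees of freedom. It was tested on simulated data. Figures were drawn with matplotlib 3.10.9, and tables were made with numpy 2.4.6 and pandas 2.3.3 in Python 3.11.15.

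Named genes are the members, genes of the fixed lists (other CXC chemokines, other CC and further chemokines, receptors, inducers and NF-kappaB genes), marker genes, and the 5 genes most like each member. Not every listed gene is reported here. Members and lists were chosen with earlier results of these data known. Alternatives were quantile normalization, a median shift, normexp with an offset of 50, other filters and probe choices, single days left out, other model terms and an intensity trend.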

Additional observations from a re-analysis of the deposited data

Results flagged for a closer look

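CCL5 stood out because its difference between HPD-filled and control defects pointed the other way on 1 of the days. It was -0.39 on day 3, with the control array higher, and 1.52 on day 5 and 0.61 on day 7, with the HPD array higher. Each value compares 1 array with 1, and the difference between days was not tested. The sign on each day was the same with quantile normalization, a median shift and normexp. There day 3 ran from -0.56 to -0.37 and day 7 from 0.22 (normexp) to 0.53 (quantile normalization). The day 7 spots of CCL5 were the dimmest of any member, at 55.4 with HPD and 34.1 in control. The only CCL5 probe reads all of these values.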

How the results depend on the processing

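The HPD differences of CXCL5, CXCL8, CCL4 and CCL5 kept their direction under every alternative that could move them. Their ranges were 1.09 to 2.06, 1.38 to 2.52, 0.96 to 1.87 and 0.11 to 1.07. They passed the adjusted limma test under no alternative run. Other filters, an intensity trend and dropping the day term cannot change these estimates, only their p-values. Averaging probes cannot move CCL5, which has 1 probe. The count of features called for HPD was 0 throughout (smallest adjusted p 0.0834 with normexp to 0.875 without the day term, 899 to 1861 features at an unadjusted p under 0.05). The labels give only 1 replicate per group, so day served as the pairing. Without this block the 4 differences stay at 1.53, 1.96, 1.42 and 0.58 by the balanced design. The adjusted p from limma was then 0.875, 0.875, 0.875 and 0.963. The median of all features moved from 0.09 to -0.04 with a median shift. For day 7 minus day 3, normexp brought the members past the threshold, at -1.73 for CXCL5, -3.39 for CXCL8, -2.11 for CCL4 and -2.70 for CCL5, and moved the median of all features to 0.17. CCL5 (-3.86) also passed without the treatment term (adjusted p 0.0292). The count called was 1 as reported, 0 with quantile normalization, without the filter on dim probes or without day 5, 5 with features on all 6 arrays, 9 with an intensity trend, 382 without the treatment term and 1029 with normexp. The cause was not tested. On day 5, CXCL5 was 3.17 with its probes averaged and 3.39 with another probe, an alternative chosen after seeing the data. Arrays limit dim genes: CCL7 was well above background on 2 arrays and untested.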
